A study of Homo sapiens with 24 samples.

Results

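The genes described here are 38 interferon-stimulated genes and the transcription factors that drive them, taken by name from the count table of a study of SIRT6 in lung cancer cells. All 38 symbols were found among the 59385 gene rows. SIRT6 is a nuclear NAD-dependent enzyme that deacetylates histones and other proteins. A549 and H1299, established cell lines from human non-small cell lung carcinoma, were stably transduced with lentivirus carrying FLAG-tagged constructs. The 4 constructs were the empty vector (Ctr), wild-type SIRT6 (WT), a triple mutant that cannot be acetylated at the chosen lysines (K3R) and a triple mutant that imitates their acetylation (K3Q). Ctr cells carry the vector too, no label says that any group lost its own SIRT6 gene, and whether a line is 1 clone or a pool of transduced cells is not stated. All cells grew in RPMI1640 with serum, and no label names an interferon, a virus or any other stimulus. Each of the 8 groups has 3 mRNA-seq libraries made from total RNA, coded 1-1 (biological replicate 1, batch 1), 1-2 (biological replicate 1, batch 2) and 2-2 (biological replicate 2, batch 2). The 3 libraries of a group therefore come from 2 biological replicates, and the p-values below take all 3 as separate.

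Interferons are secreted proteins that cells release on sensing foreign or misplaced nucleic acid. Type I and type III interferons bind their receptors, the kinases JAK1 and TYK2 are activated, and the transcription factor complex ISGF3, which holds STAT2 and IRF9, binds interferon-stimulated response elements in promoters. The genes switched on in this way include sensors of viral RNA (IFIH1, DDX58), proteins that bind or cut it (the IFIT and OAS families, ISG20), the ubiquitin-like ISG15 with its ligase HERC5 and its protease USP18, and trapping GTPases (MX1, MX2). Many have a low basal level in epithelial cells without added interferon.

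The response element is read here as GAAANNGAAA on either strand (TTTCNNTTTC on the other), the core that ISGF3 and interferon regulatory factors recognise. In RefSeq promoters of GRCh38.p14, from 250 bases before to 50 bases after the annotated start, 31 of the 38 genes had an entry. Of these, 21 (67.7%) held the motif and 12 held it at least 2 times, counting overlapping copies, against 1195 of 27305 symbols (4.38%) in the whole promoter table. The genes with an entry and no match were IFI35, DDX58, OAS1, STAT2, IRF1, IRF9, SAMD9L, XAF1, HERC6 and CMPK2. The 150 bases before the start are shown for the 3 genes called between constructs in H1299 and for ISG15, the highest of the genes in that line, each 5′ to 3′ on the gene's own strand with motif matches in capitals. SAMD9 (chr7:93117980-93118129, minus strand) has 1 match that starts 136 bases before the start, IFIT1 (chr10:89392473-89392622, plus strand) has 2 matches at 116 and 103, IFI44 (chr1:78649639-78649788, plus strand, 1 of 2 annotated starts) has 1 at 18, and ISG15 (chr1:1013347-1013496, plus strand) has 2 overlapping matches at 113 and 107. These matches are letters in a window, and binding was not measured.
SAMD9: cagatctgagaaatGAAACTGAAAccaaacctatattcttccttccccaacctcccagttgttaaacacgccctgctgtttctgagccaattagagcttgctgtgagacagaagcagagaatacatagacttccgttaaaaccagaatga
IFIT1: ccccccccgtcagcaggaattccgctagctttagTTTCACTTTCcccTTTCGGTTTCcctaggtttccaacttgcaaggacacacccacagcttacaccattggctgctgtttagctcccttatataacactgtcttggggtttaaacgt
IFI44: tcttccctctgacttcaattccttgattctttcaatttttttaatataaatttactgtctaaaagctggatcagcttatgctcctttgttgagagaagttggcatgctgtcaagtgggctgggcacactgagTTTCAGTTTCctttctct
ISG15: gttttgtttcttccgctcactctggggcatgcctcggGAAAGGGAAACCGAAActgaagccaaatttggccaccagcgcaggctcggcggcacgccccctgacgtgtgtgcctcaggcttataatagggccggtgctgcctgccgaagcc

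Depth and labels were checked first. Library totals ran from 16434492 to 19412274 counts in A549 and from 14943189 to 22856407 in H1299, so that 3 counts, the limit that a count of 0 allows, correspond to 0.155 to 0.183 CPM (counts scaled to a library total of 1e6) and 0.131 to 0.201 CPM. SIRT6 read 22.1 to 33.6 CPM in A549 Ctr and 35.2 to 46.3 CPM in H1299 Ctr. In A549 it read 1370 to 2885 CPM with WT, 1389 to 3254 with K3R and 1474 to 1635 with K3Q, and in H1299 2490 to 6877 with WT, 2710 to 6075 with K3R and 10434 to 14552 with K3Q. CDKN2A, deleted in A549, read 0 to 1.30 CPM there and 105 to 146 CPM in H1299. Leukocyte (5 genes), plasmacytoid dendritic (1), endothelial (2) and fibroblast (2) markers summed to at most 1.25 CPM in any H1299 library for any list, and in A549 the only list above 1 CPM was leukocyte, at 1.87 to 7.77 CPM, nearly all of it CD14, with PTPRC at most 0.0586 CPM. In A549 the K3Q libraries 1-2 and 2-2 differed by a chi-square per degree of freedom of 2.49, while each of 23 other within-group pairs gave 14.4 to 63.6, so these libraries, labelled as different biological replicates, may not be independent.

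Without stimulation, the genes covered a wide range of levels. Per kilobase of exon (GENCODE 29 lengths, GRCh38), the highest means over the 12 libraries of A549 were those of OAS3 at 13.0 CPM per kb, IFI35 at 11.6, IFI6 at 6.33 and ISG15 at 6.25. In H1299 the order was ISG15 at 60.7 CPM per kb, IFI6 at 16.0, IFI35 at 8.20, OAS3 at 5.57 and HERC5 at 5.09. OAS3 makes the messenger that activates RNase L, IFI6 is a mitochondrial and endoplasmic reticulum protein that limits cell death and flavivirus replication, and HERC5 is the ligase that attaches ISG15 to new proteins. The ranges of IFI6 and ISG15 overlapped in A549 and were separate in H1299. At the other end, 9 genes (IFI44L, DDX58, MX2, OAS2, RSAD2, XAF1, CMPK2, BST2 and EPSTI1) were too low to test in either line, with at most 0.873 CPM (19 counts, BST2) in any of the 24 libraries. Among them are the RNA sensor DDX58 (RIG-I), at most 0.548 CPM, and RSAD2 (viperin), at most 0.186 CPM. In A549 28 genes could be tested, and in H1299 27: IFI44 passed only in H1299, and OAS1 and TRIM22 only in A549.

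**Figure D1:**
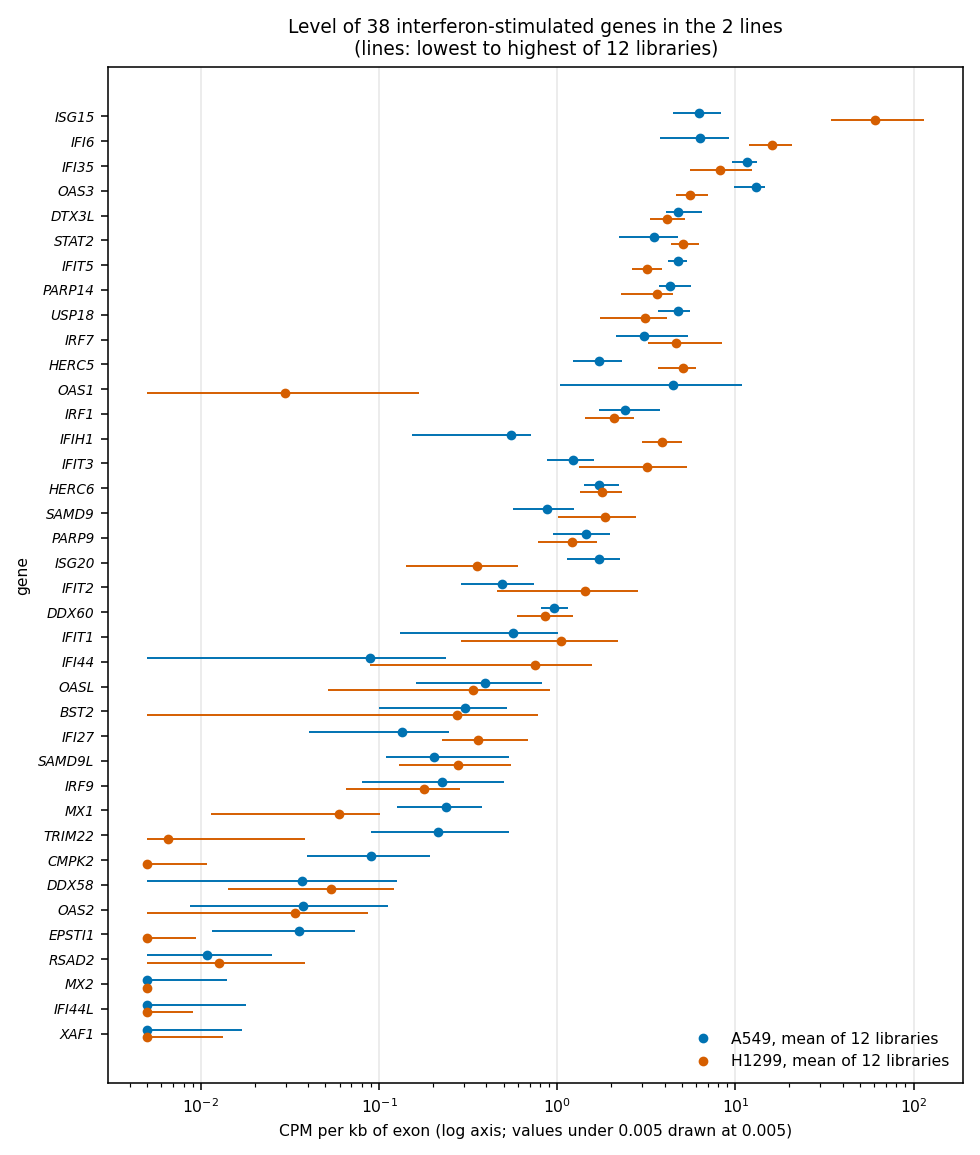
Mean level of each of the 38 genes in CPM per kb of exon (log axis) over the 12 libraries of A549 (blue) and of H1299 (orange), with a line from the lowest to the highest library. ISG15, IFI6 and IFIH1 lie higher in H1299, OAS1, OAS3, ISG20, MX1 and TRIM22 higher in A549, and the lowest genes, such as MX2 and XAF1, lie near 0 in both.

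Many of these genes differed between the lines. Between the empty-vector cells of the lines, 17 of 29 tested genes passed edgeR's quasi-likelihood test at a Benjamini-Hochberg adjusted p under 0.05, 11 higher in A549 and 6 higher in H1299, with 63.8% of all 18102 genes called in the same comparison, so the share among these genes, 58.6%, is near that of all genes. Among RNA sensors, IFIH1 (MDA5, the sensor of long double-stranded RNA) was 10.1-fold lower in A549 (log2 change -3.33 ± 0.26 SE, adjusted p = 5.54e-10). In the ISG15 system, ISG15 was 5.51-fold lower in A549 (log2 change -2.46 ± 0.28) and HERC5 3.33-fold lower (log2 change -1.74 ± 0.20), while USP18, which removes ISG15, was 1.49-fold higher (log2 change 0.58 ± 0.22, adjusted p = 0.0298). Its reads can be shared with the near-identical copy USP41.
In the OAS family, OAS3 was 2.47-fold higher in A549, and OAS1 was almost unread in H1299: 0.184, 0 and 0 CPM in the Ctr libraries 1-1, 1-2 and 2-2, against 39.8, 10.6 and 7.55 CPM in A549. TRIM22, a ubiquitin ligase that restricts viruses, likewise read 0 to 0.232 CPM over the H1299 libraries and 0.544 to 3.22 CPM over those of A549. The GTPase MX1 was 4.10-fold higher and the exonuclease ISG20 4.75-fold higher in A549, and all 3 genes of the ADP-ribosylation group (PARP9, PARP14 and DTX3L) were 1.44-fold to 1.47-fold higher there. IFI6 and IFI27 were 2.44-fold and 4.53-fold lower in A549. In a fit of the 6 Ctr libraries alone 12 genes were called, beside 9186 of all genes, and PARP9 and USP18 were not among them. Leaving out 1 Ctr library gave 14 to 19 calls, for which the share of all genes is not given here. None of the 4 transcription factors passed: STAT2 had a log2 change of -0.17 ± 0.21, IRF9 of -0.15 ± 0.51, IRF1 of 0.41 ± 0.18 (adjusted p = 0.0560) and IRF7 of -0.46 ± 0.26.

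The first question of the design is what wild-type SIRT6 does to gene expression, and in H1299 2 of the 27 tested genes rose. SAMD9, a cytoplasmic protein that restricts poxviruses and slows growth (GENCODE 29: chr7:93099513-93118023, minus strand), read 9.33, 10.3 and 12.3 CPM in the Ctr libraries 1-1, 1-2 and 2-2, and 19.1, 15.1 and 17.7 CPM in the WT libraries. The groups did not overlap, and SAMD9 was 1.65-fold higher with WT (log2 change 0.72 ± 0.17, adjusted p = 0.0283). IFIT1, which binds viral RNA that lacks host cap methylation (chr10:89392546-89406486, plus strand), read 5.93, 2.35 and 2.20 CPM with Ctr and 10.1, 4.38 and 9.09 CPM with WT. The groups overlapped, since library 1-1 was highest in both, but WT was above Ctr within each library code, and IFIT1 was 2.42-fold higher (log2 change 1.27 ± 0.32, adjusted p = 0.0401). In the same comparison 4.05% of all 16262 genes were called and 2.52% were called higher.
Other genes of the group had positive changes that missed the threshold: IFI44 1.62 ± 0.48 (adjusted p = 0.0803), ISG15 0.91 ± 0.27 (0.0821) and IFIT3 0.70 ± 0.32 (0.278) on the log2 scale. In a fit with the library code as a block, 5 genes were called, all higher (SAMD9, IFIT1, IFIT3, IFI44 and ISG15), with 9.75% of all genes called. Over the 27 genes, 19 changes were positive and the median was 0.08, against -0.01 over all genes. All 4 IFIT genes and all 3 genes of the ADP-ribosylation group had positive changes, with medians of 0.82 and 0.14, while the ISG15 system (ISG15, HERC5, its relative HERC6, and USP18) and the 4 transcription factors were split evenly by sign, with medians of 0.01 and 0.02. The calls rest on all libraries: SAMD9 kept its call in 2 and IFIT1 in 1 of the 6 fits that leave out 1 Ctr or WT library. Without Ctr 1-1, Ctr 1-2, WT 1-1 or WT 2-2 no gene was called, with adjusted p-values up to 0.122 for SAMD9 and 0.171 for IFIT1, and with the 2 libraries of biological replicate 1 summed they were 0.197 and 0.117.

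The acetylation-deficient mutant was next compared with the empty vector. No gene was called for K3R in H1299 (3.25% of all genes called; an unadjusted p under 0.05 was held by 4 of the 27 genes and 17.6% of all genes). SAMD9 read 15.2, 12.7 and 16.0 CPM with K3R, above all 3 Ctr libraries, with a log2 change of 0.53 ± 0.17 and an adjusted p of 0.111; with the library code as a block it was the only gene called (adjusted p = 0.0242, 8.56% of all genes called), and with biological replicate 1 summed none was. IFIT1 read 7.92, 2.92 and 5.58 CPM and IFI44 2.06, 1.38 and 1.98 CPM with K3R, against 1.01, 0.181 and 1.61 CPM of IFI44 with Ctr, so that both genes overlapped between K3R and Ctr. Within library codes 1-1, 1-2 and 2-2 the K3R minus Ctr differences in log2 CPM were 0.50, 0.36 and 1.37 for IFIT1 and 1.03, 2.38 and 0.35 for IFI44, positive in each. The genes with the lowest p beside SAMD9 were IRF9 (log2 change -1.36 ± 0.46, adjusted p = 0.139) and ISG15 (0.69 ± 0.27, adjusted p = 0.198). IRF9 counts are small (4 to 21 in H1299), and 48.4% of its exon bases are shared on the same strand with the gene AL136295.5, so its level depends on how the counting treated overlaps.

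For the acetylation-mimetic mutant, K3Q against Ctr, no gene of the group was called either (0.0615% of all genes called; an unadjusted p under 0.05 was held by 2 of the 27 genes and 9.72% of all genes). The lowest p-values were those of IFI6 (log2 change 0.47, adjusted p = 0.370), SAMD9L, the paralogue of SAMD9 (-0.98, adjusted p = 0.427), and IRF1 (-0.26, adjusted p = 0.560). Changes were negative in 20 of the 27 genes, with a median of -0.24 against -0.01 over all genes. This comparison shares its Ctr libraries with those of WT and K3R.

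The comparison of the mutants with wild-type SIRT6 asks what acetylation state at those lysines does. In H1299 3 of the 27 genes fell with K3Q against WT. SAMD9 read 7.75, 6.96 and 10.2 CPM with K3Q, below all WT libraries, and was 1.97-fold lower (log2 change -0.98 ± 0.17, adjusted p = 0.00947). IFIT1 read 3.85, 1.34 and 2.54 CPM with K3Q, again below all WT libraries, and was 2.96-fold lower (log2 change -1.56 ± 0.33, adjusted p = 0.0232). IFI44, a protein induced by interferon that slows cell proliferation (chr1:78649796-78664078, plus strand), read 3.06, 2.25 and 3.19 CPM with WT and 0.696, 0.669 and 0.325 CPM with K3Q. These are 40 to 66 counts against 6 to 15, and IFI44 was 4.75-fold lower (log2 change -2.25 ± 0.51, adjusted p = 0.0320). Of all 16262 genes 3.46% were called and 2.05% were called lower.
Within library codes 1-1, 1-2 and 2-2 the K3Q minus WT differences in log2 CPM were -1.24, -1.02 and -0.77 for SAMD9, -1.31, -1.54 and -1.77 for IFIT1, and -1.93, -1.51 and -2.88 for IFI44. The 3 genes were thus lower with K3Q in each batch and in each biological replicate.

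The IFIT family showed the same sign in all 4 members, with 1 of them called. IFIT3, which stabilises IFIT1 on RNA, read 12.9, 8.82 and 14.2 CPM with WT and 4.69, 3.48 and 7.69 CPM with K3Q, groups that did not overlap, and had a log2 change of -1.09 ± 0.33 (adjusted p = 0.0843). IFIT2, linked to cell death, had a log2 change of -1.46 ± 0.51 (adjusted p = 0.125), and IFIT5 one of -0.28 ± 0.15 (adjusted p = 0.346). OASL, an OAS relative without synthetase activity that helps RIG-I signal, read 2.45, 0.899 and 3.19 CPM with WT and 0.371, 0.402 and 0.433 CPM with K3Q (log2 change -2.38 ± 0.67, adjusted p = 0.0706). With the library code as a block, IFIT3 (adjusted p = 0.00134), OASL (0.0103) and IFIT2 (0.0113) joined the other 3, so that 6 genes fell and none rose, with 12% of all genes called.
In the other direction the largest changes were those of ISG20 (0.51 ± 0.46, adjusted p = 0.583) and IFI6 (0.39 ± 0.16, adjusted p = 0.184). Over the group, 22 of 27 changes were negative with a median of -0.31, against 0.00 over all genes, and 11 of the 27 (against 20.3% of all genes) had an unadjusted p under 0.05. By role, the median was -1.28 for the 4 IFIT genes, -1.24 for the OAS relatives OAS3 and OASL, -0.24 for the 3 ADP-ribosylation genes, which modify proteins with ADP-ribose and ubiquitin, and -0.22 both for the ISG15 system and for the transcription factors. The OAS value is the midpoint of unlike genes. Mean CPM with WT and with K3Q was 46.1 and 40.9 for OAS3, and 2.18 and 0.402 for OASL. ISG15 read 63.6, 56.1 and 108 CPM with WT and 53.8, 53.8 and 32.4 CPM with K3Q; its differences by code were -0.20, 0.03 and -1.71, so that biological replicate 2 held nearly all of its log2 change of -0.63 ± 0.27 (adjusted p = 0.205).

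These calls rest on single libraries, and SIRT6 reads moved with them. Without K3Q 1-1 or without K3Q 1-2 no gene was called, and without WT 2-2 only SAMD9 was; SAMD9 kept its call in 4, IFIT1 in 3 and IFI44 in 0 of the 6 such fits, with adjusted p-values up to 0.0843, 0.133 and 0.155. With biological replicate 1 summed the 3 adjusted p-values were 0.140, 0.123 and 0.123. In a fit of all 24 libraries SAMD9 kept its call (adjusted p = 0.0200), and IFIT1 (0.0765) and IFI44 (0.0632) did not. SIRT6 reads were higher in all K3Q libraries of H1299 (10434 to 14552 CPM) than in the WT libraries (2490 to 6877 CPM), and their part in the difference was not tested. Of the markers of other cells, VWF, an endothelial gene, also rose with WT in H1299, from 0 to 0.0919 CPM with Ctr to 0.417 to 1.14 CPM (adjusted p = 0.0199), and read 0.0464 to 0.217 CPM with K3Q, while PECAM1, the other endothelial marker, read 0.0595 to 0.487 CPM over the H1299 libraries. The endothelial list summed to 0.0604 to 0.276 CPM with Ctr, 0.731 to 1.20 with WT, 0.394 to 0.929 with K3R and 0.139 to 0.704 with K3Q, and its part in the result was not tested. In bulk RNA, fewer cells that express a gene and less RNA per cell cannot be told apart.

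**Figure D2:**
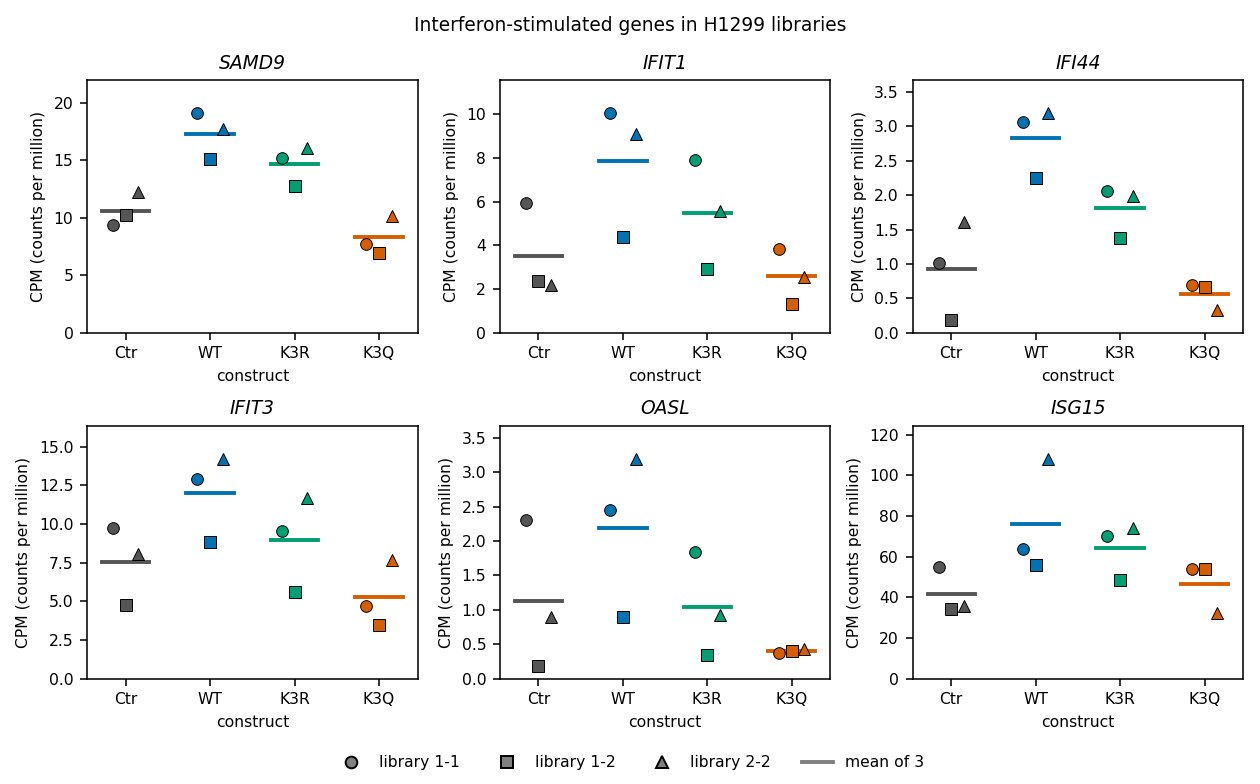
CPM of SAMD9, IFIT1, IFI44, IFIT3, OASL and ISG15 in the 12 H1299 libraries by construct, each axis from 0, with 1 symbol per library code and a bar at the mean of 3. SAMD9, IFIT1, IFI44 and IFIT3 have their highest mean with WT and their lowest with K3Q, and K3R lies between WT and Ctr in mean.

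Between the mutants themselves, K3Q against K3R, no gene of the group was called (0.449% of all genes called; an unadjusted p under 0.05 was held by 7 of the 27 genes and 11.9% of all genes). SAMD9 came nearest, with no overlap between the K3Q and K3R libraries (log2 change -0.78 ± 0.17, adjusted p = 0.0610), followed by IFIT1 (-1.04 ± 0.33, adjusted p = 0.197) and IFI44 (-1.64 ± 0.52, adjusted p = 0.200). With the library code as a block 3 genes were called, all lower with K3Q: SAMD9 (adjusted p = 0.00565), IFIT1 (0.0265) and IFIT3 (0.0387), with 3.23% of all genes called, and with biological replicate 1 summed none was. For K3R against WT no gene was called (0.00% of all genes, with 1 of the 27 genes and 2.99% of all genes at an unadjusted p under 0.05, and by DESeq2 0 as well). The lowest p-values there were those of IRF9 (-1.08 ± 0.47), OASL (-1.18) and HERC6 (-0.33), each with an adjusted p of 0.999. The K3R minus WT change was -0.53 ± 0.31 for IFIT1 and -0.61 ± 0.45 for IFI44, so that the missing calls do not show WT and K3R to act alike.

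None of the 4 factors that drive these genes passed the test in H1299. STAT2, the subunit of ISGF3 that activates transcription, read 27.7, 28.4 and 36.3 CPM with Ctr, 32.1, 28.2 and 29.9 with WT, 29.4, 27.3 and 29.7 with K3R, and 36.9, 26.4 and 38 with K3Q. IRF1, a factor also induced by interferon gamma, read 14.2, 17.4 and 18.3 CPM with Ctr, 12.6, 21.1 and 18.5 with WT, 13.7, 19.1 and 20.1 with K3R, and 11.2, 15.1 and 12.5 with K3Q. All 4 groups overlapped for both genes, and between WT and K3Q STAT2 had a log2 change of 0.25 ± 0.14 (adjusted p = 0.347) and IRF1 of -0.33 ± 0.14 (adjusted p = 0.204).
IRF7, the factor that amplifies interferon production, read 8.50, 9.84 and 12.3 CPM with Ctr, 11.3, 10.3 and 22.2 with WT, 11.5, 12.1 and 15 with K3R, and 11.1, 11.7 and 9.58 with K3Q. Its highest library by far was WT 2-2, the library that was also highest for ISG15. IRF9, the DNA-binding subunit of ISGF3, read 0.965, 1.03 and 0.833 CPM with Ctr, 0.741, 0.955 and 0.602 with WT, 0.481, 0.296 and 0.248 with K3R, and 0.511, 0.402 and 1.08 with K3Q. The K3R libraries of IRF9 were below all Ctr and WT libraries, without passing the test. MX1 read 0.643, 0.483 and 0.178 CPM with Ctr, 0.648, 0.562 and 0.843 with WT, 0.788, 0.0988 and 0.310 with K3R, and 0.279, 0.870 and 0.433 with K3Q, and OAS1 at most 0.834 CPM (18 counts, WT 1-1), with 0 counts in 4 libraries. MX1 had 2 to 18 counts a library. ISG15 with Ctr read 54.7, 34.3 and 35.8 CPM and with K3R 70.4, 48.5 and 73.9 CPM, so that 2 of the 3 K3R libraries exceeded all Ctr libraries.

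**Figure D3:**
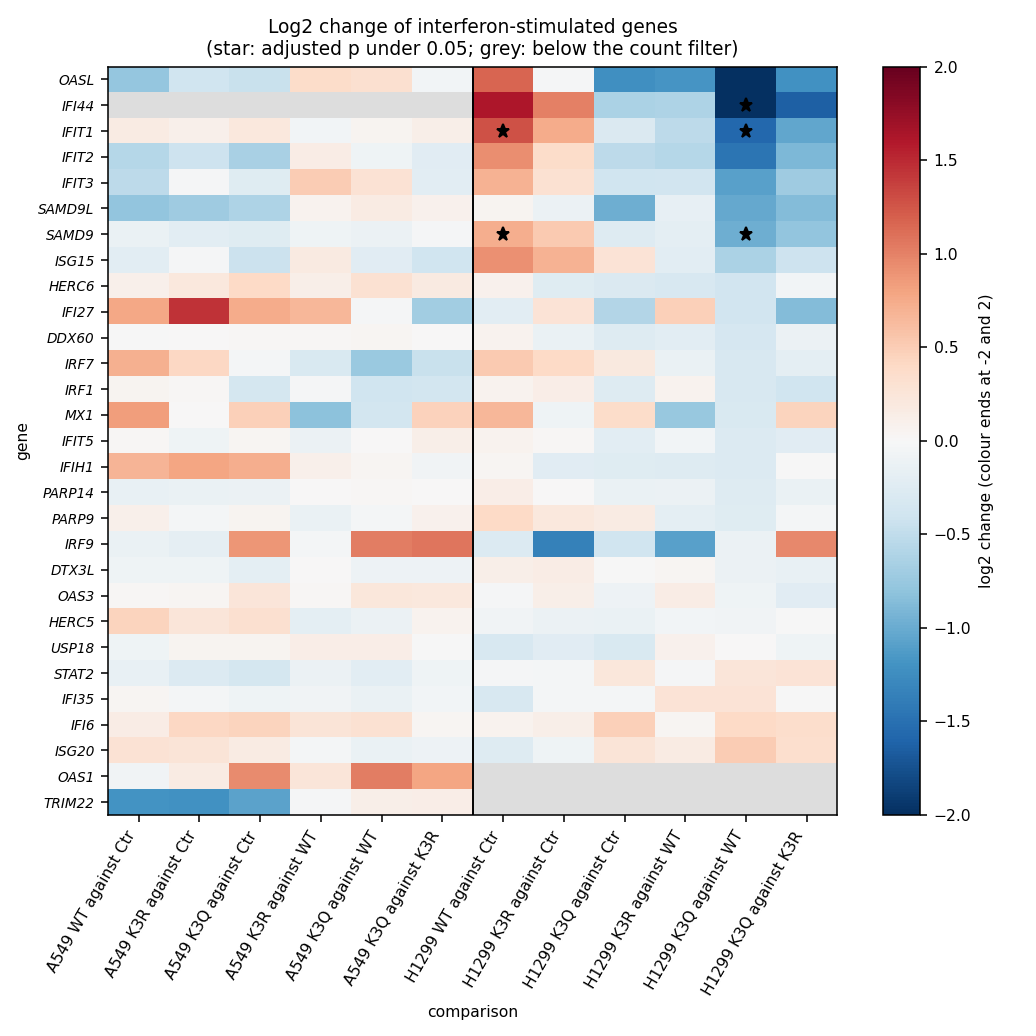
Log2 change (colour, ending at -2 and 2) of the 29 genes tested in at least 1 line, in the 6 comparisons of A549 (left) and the 6 of H1299 (right), ordered by the change of K3Q against WT in H1299. Stars mark the 5 calls, all in H1299, where SAMD9 and IFIT1 are called for WT against Ctr and these and IFI44 for K3Q against WT, and grey marks genes below the count filter.

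In A549 no construct changed any of the 28 tested genes past the threshold in any of the 6 comparisons. In simulated data, the A549 fit of WT against Ctr recovered 11% of changes of 1.5-fold and 76% of those of 3-fold. Those changes were placed in genes drawn from all tested genes, with independent libraries, so recovery among the 28 genes was not measured. Missing calls therefore do not show that small changes are absent. Against Ctr, 0.105% of all 16120 genes were called for WT, 0.118% for K3R and 0.0248% for K3Q, and K3R against WT had 0.00%, K3Q against WT 0.00620% and K3Q against K3R 0.00620%. At edgeR's unadjusted p under 0.05, WT against Ctr had 6 of the 28 genes and 7.93% of all genes, K3R against Ctr 3 and 6.92%, and K3Q against Ctr 3 and 8.62%. The other comparisons had 2 of the 28 and 0.720% of all genes (K3R against WT), 2 and 6.46% (K3Q against WT), and 0 and 4.39% (K3Q against K3R). DESeq2 called 0 of the 28 in each. For WT against Ctr the lowest p-values were those of MX1 (log2 change 0.83 ± 0.27, adjusted p = 0.412), IRF7 (0.72 ± 0.25, adjusted p = 0.478) and IFIT3 (-0.53, adjusted p = 0.485). MX1 read 2.01, 1.57 and 1.28 CPM with Ctr, 3.03, 3.25 and 2.15 with WT, 1.88, 1.82 and 1.09 with K3R, and 2.52, 1.85 and 2.11 with K3Q, so that the WT libraries exceeded all Ctr libraries. IRF7 read 5.70, 6.64 and 7.48 CPM with Ctr, 6.81, 11.5 and 14.2 with WT, 7.21, 6.53 and 12.4 with K3R, and 6.65, 5.61 and 6.06 with K3Q.
IFIT1, called in H1299, read 3.26, 3.38 and 0.608 CPM with Ctr, 3.66, 3.25 and 1.13 with WT, 4.63, 2.22 and 1.27 with K3R, and 2.99, 3.03 and 1.94 with K3Q, with library 2-2 lowest in every construct. SAMD9 read 6.73, 5.19 and 8.52 CPM with Ctr, 6.92, 6.27 and 4.98 with WT, 5.74, 7.50 and 3.88 with K3R, and 4.79, 5.05 and 6.63 with K3Q, and all 4 groups overlapped. Its K3Q against WT change in A549 was -0.12 ± 0.27 (adjusted p = 0.969).

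For K3R against Ctr in A549 the lowest p-values were those of IFI27 (1.44, adjusted p = 0.635), TRIM22 (-1.21) and IFIH1 (0.79), and for K3Q against Ctr those of IFIT2 (-0.65, adjusted p = 0.476), HERC6 (0.40, adjusted p = 0.538) and OAS1 (0.95 ± 0.39, adjusted p = 0.547). OAS1, the synthetase that makes short activators of RNase L, read 39.8, 10.6 and 7.55 CPM with Ctr, 27.7, 14.2 and 5.94 with WT, 42.8, 15.2 and 5.16 with K3R, and 54.2, 19.2 and 21.1 with K3Q. Library 1-1 was highest in every construct, and 2-2 was lowest except with K3Q, whose library 2-2 lay near its own 1-2. For K3Q against WT IRF7 (-0.75, adjusted p = 0.614), OAS1 (1.02 ± 0.39, adjusted p = 0.718) and IRF9 (1.02) came first, for K3R against WT MX1 (-0.83), IFIT3 (0.50) and IFI6, and for K3Q against K3R IRF9 (1.07), OAS1 (0.78) and IRF7 (-0.45, adjusted p = 0.971).
STAT2 read 27.0, 17.8 and 29.3 CPM with Ctr, 24.4, 15.4 and 25.3 with WT, 23.4, 13.6 and 23.4 with K3R, and 25.9, 14.5 and 16.1 with K3Q. IRF1 read 15.9, 19.1 and 24.5 CPM with Ctr, 17.0, 17.4 and 25.4 with WT, 13.4, 17.4 and 29.2 with K3R, and 14.0, 16.6 and 13.5 with K3Q. In both genes K3Q 2-2 departed from the 2-2 libraries of the other constructs. IRF9 read 1.47, 0.604 and 0.304 CPM with Ctr, 0.686, 0.887 and 0.340 with WT, 1.23, 0.454 and 0.364 with K3R, and 1.91, 1.51 and 0.571 with K3Q, lowest in library 2-2 of every construct. ISG15 read 5.86, 7.79 and 6.39 CPM with Ctr, 4.92, 4.97 and 7.13 with WT, 7.62, 4.89 and 6.74 with K3R, and 4.22, 4.21 and 5.83 with K3Q, and the K3Q libraries were below all Ctr libraries (log2 change -0.43 ± 0.23, adjusted p = 0.637).

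**Figure D4:**
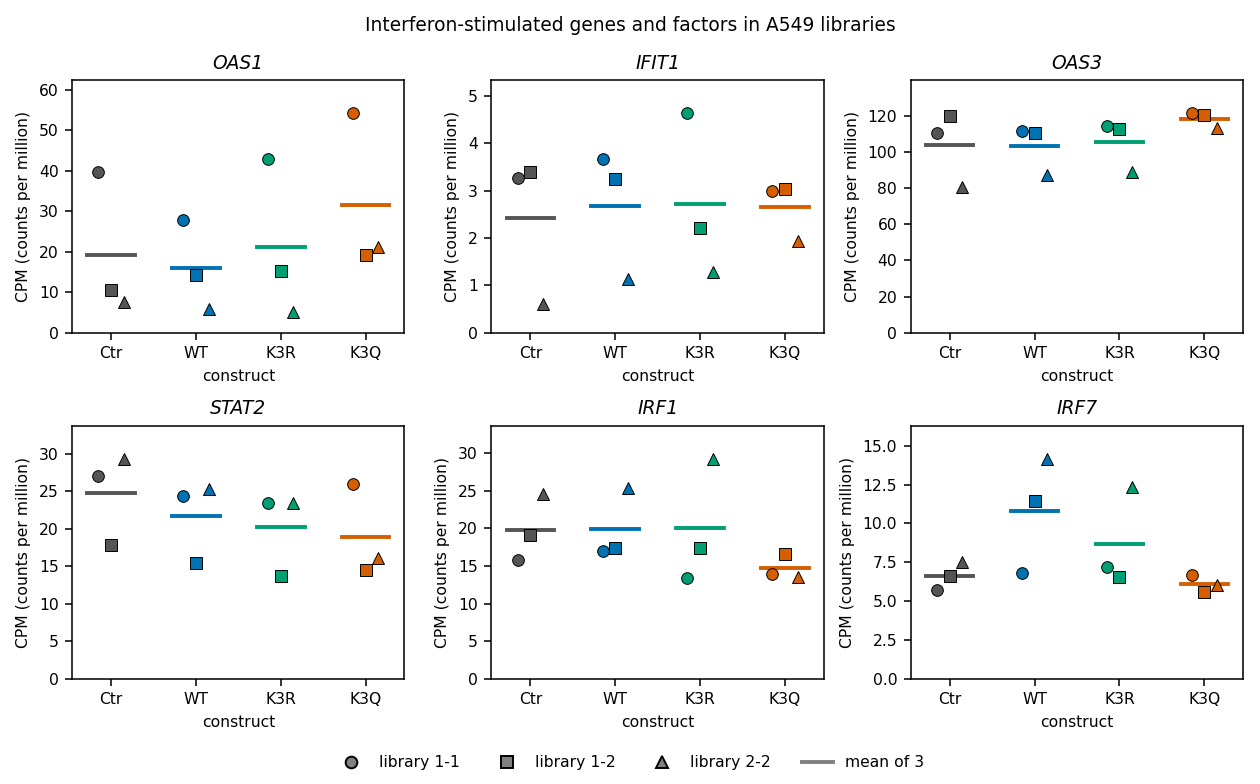
CPM of OAS1, IFIT1, OAS3, STAT2, IRF1 and IRF7 in the 12 A549 libraries by construct, each axis from 0, with 1 symbol per library code and a bar at the mean of 3. Library 1-1 is highest for OAS1 and library 2-2 lowest for IFIT1 and OAS3 in every construct, and no pair of constructs differs past the test's threshold in these genes.

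Whether the lines answered a construct differently was tested in 1 fit of all 24 libraries. No gene of the 29 was called for the difference between A549 and H1299 in the effect of WT (0.365% of all 18102 genes called), of K3R (0.238%) or of K3Q (0.0110%), each against Ctr, and 6, 2 and 2 of the 29 genes had an unadjusted p under 0.05, against 7.85%, 7.14% and 5.09% of all genes. For WT the lowest p-values were those of IFIT3 (A549 minus H1299 -1.22 ± 0.41, adjusted p = 0.298), ISG15 (-1.09 ± 0.39, adjusted p = 0.356) and OASL (-1.96 ± 0.70, adjusted p = 0.376). SAMD9 had -0.85 ± 0.31 (adjusted p = 0.407) and IFIT1 -1.10 ± 0.65 (adjusted p = 0.748). The calls of SAMD9 and IFIT1 in H1299 and their absence in A549 are therefore not shown to differ between the lines. With the library code as a block, nested in the line, IFIT3 was called for WT (-1.23, adjusted p = 0.0117, with 2.40% of all genes called), and without the low-count filter ISG15 was (-1.12, adjusted p = 0.00273, with 430 of all genes called). For K3R the first were IFIH1 (1.01 ± 0.36, adjusted p = 0.418) and SAMD9 (-0.75 ± 0.32, adjusted p = 0.613), and for K3Q HERC6 (0.69 ± 0.25) and IFIH1 (0.96 ± 0.36), both with an adjusted p of 0.871.

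Some of these genes also differed between the biological replicates of a line. Within batch 2, biological replicate 2 was compared with replicate 1 over the 4 constructs of a line. In H1299 7 of the 27 genes were called, all higher in replicate 2, with 16.3% of all genes called: IFI35 (log2 change 0.68 ± 0.11, adjusted p = 0.00146), IFIT3 (0.87 ± 0.15, adjusted p = 0.00211), ISG20 (1.19 ± 0.26), IFIT2 (1.23 ± 0.30), IFIH1 (0.34 ± 0.10), IFIT1 (0.72 ± 0.21, adjusted p = 0.0307) and OASL (1.44 ± 0.46, adjusted p = 0.0467). In A549 3 of the 28 were called, with 14.3% of all genes called: STAT2 was higher (0.55 ± 0.12, adjusted p = 0.0295), and OAS3 (-0.38 ± 0.09, adjusted p = 0.0296) and IFIT1 (-1.32 ± 0.31, adjusted p = 0.0306) were lower in replicate 2. Of the 3 genes called between constructs in H1299, only IFIT1 was called here, and its H1299 call was lost in batch 2 alone (adjusted p = 0.0599) and without the K3Q libraries (adjusted p = 0.0682). The H1299 call of IFIH1 was lost in batch 2 alone (adjusted p = 0.0594) and without the low-count filter (adjusted p = 0.0626). The A549 share of 10.7% lies below that of all genes, and the H1299 share is 25.9%. For IFIT1 in H1299 the replicate change of 0.72 stands beside the WT against Ctr change of 1.27. In A549 the 3 calls were lost when batch 2 was fitted alone, where 4 of all genes were called. Without the K3Q libraries 8 of the 28 genes were called, beside 6053 of all genes.

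The genes upstream of the response were examined next. A list of 38 other pathway genes held 9 interferons, 6 receptor chains, 5 kinases and STATs, 13 sensing and signalling genes and 5 negative regulators. Of the interferons only IFNE exceeded 2 counts in any library, at 2 to 18 counts. The receptor chain IFNAR1 read 33.4 to 46.0 CPM in A549 and 53.3 to 74.9 CPM in H1299. The adaptor of Toll-like receptors MYD88 read 32.2 to 53.7 CPM in A549 and 0.198 to 0.662 CPM in H1299.
None of the 28 pathway genes tested in A549 was called in any of its 6 comparisons, where at most 0.118% of all genes were. Of 29 in H1299, the interferon gamma receptor chain IFNGR2 fell with K3R against Ctr (-0.40 ± 0.10, adjusted p = 0.0484), and TICAM1, the adaptor of TLR3, was higher with K3Q than with WT (0.51 ± 0.12, adjusted p = 0.0308); none was called in the other 4. Each is 1 of 29 genes (3.45%), beside 3.25% and 3.46% of all genes. With the library code as a block, 4 genes were called for WT against Ctr, namely STING1 higher and IFNGR2, TICAM1 and SOCS3 lower (9.75% of all genes called), 2 for K3R against Ctr, IFNGR2 and SOCS3, both lower (8.56%), and 2 for K3Q against WT, TICAM1 higher and the inhibitor SOCS1 lower (12%). A further list of 40 interferon-inducible genes had 0 of 34 called in A549 in every comparison. In H1299 1 of 31 was called, TDRD7, which fell with K3Q against WT (-0.63 ± 0.16, adjusted p = 0.0473), which is 3.23% of the list beside 3.46% of all genes. With the block, 4 of the 31 were called for WT against Ctr (SP100, ZNFX1 and HELZ2 higher, LAMP3 lower), 5 for K3R against Ctr (IFITM2, PML, ZNFX1 and HELZ2 higher, LAMP3 lower), and 5 for K3Q against WT (UBE2L6 and TRIM14 higher, TDRD7, HELZ2 and SLFN5 lower). TDRD7 was also called lower with the block for K3Q against K3R (adjusted p = 0.0123, with 3.23% of all genes called). The fit without the block did not call it (adjusted p = 0.127). The median change of these 31 genes for K3Q against WT was -0.06, against -0.31 for the 27 genes described above.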

How the data were processed

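RNA-seq of 24 libraries (2 lines, 4 constructs, 3 libraries each) was used as 1 table of raw gene counts deposited by the authors, with 59385 symbols. Per the submitters' processing notes the tools were FastQC, cutadapt, STAR and featureCounts on GRCh38, with versions, annotation and strand setting not given in the sources used here. Every column matched 1 sample label. The genes and lists described were chosen with earlier results of these data known.

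Each line was fitted separately with edgeR 4.0.16 (filterByExpr, TMM scaling, quasi-likelihood test, construct and batch terms), and Benjamini-Hochberg adjustment ran over all genes tested, with calls at an adjusted p under 0.05. The lines were compared in 1 fit of all 24 libraries. A log2 change comes from the fit, and its SE is the change divided by the square root of F. CPM are counts scaled to a library total of 1e6; within-code differences use log2 CPM with a prior count of 2. Named genes were those called in a comparison, at most 10, otherwise the 3 with the lowest p, and always STAT2, IRF9, IRF1, IRF7, IFIT1, ISG15, MX1 and OAS1; others were chosen after their values were seen.

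The pairing of library codes was checked by correlating deviations from group means. In H1299 all 18 same-code pairs had r from 0.135 to 0.552, and the code was used as a pairing block. Pairs of unlike codes were not correlated, and code 1-1 is also batch 1. The check therefore cannot tell pairing by code from a shared batch. In A549 15 pairs had r from 0.275 to 0.745, but the 3 pairs with K3Q 2-2 had 0.0568 to 0.118, so the codes there do not pair all samples. The fit was tested on simulated data for WT against Ctr, with changed genes drawn at random from all tested genes, independent libraries and no batch effect. In A549 it recovered 11% of 1.5-fold and 76% of 3-fold changes, and in H1299 25% and 74%. Alternatives were DESeq2 1.42.0, scaling by RLE, all genes unfiltered, no batch term, the block, summed or left-out libraries, and a fit of all libraries. Intervals were not computed for single libraries, and p-values cover the spread between these libraries only. Results for some genes are not reported here.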

Additional observations from a re-analysis of the deposited data

How the results depend on the processing

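In each comparison the alternatives were followed for the genes called, at most 10, or for the 3 with the lowest p where none was called. None of these reversed its direction under any alternative run. For the other genes named above, direction under the alternatives was not checked. Counts of interferon-stimulated genes called that moved by over 1.5 times are these; the cause was not tested. With the replicate block (pairing by library code), H1299 WT against Ctr gave 5, K3R against Ctr 1, K3Q against WT 6, K3Q against K3R 3, and the difference of the WT effect between lines 1 (IFIT3); no other comparison moved. Without the batch term WT against Ctr and K3Q against WT in H1299 gave 1 each. Without the low-count filter, A549 K3Q against Ctr, against WT and against K3R gave 1 each (OAS1), H1299 gave 6 for WT against Ctr, 1 for K3R against Ctr, 7 for K3Q against WT, 5 between the mutants, the WT difference between lines 1 (ISG15), and the A549 replicate comparison 5. Of all genes, the unfiltered fit called 641 for A549 K3Q against Ctr, 332 against WT and 228 against K3R. DESeq2 gave 5 for K3Q against WT and 1 between the mutants in H1299. With biological replicate 1 summed, and in batch 2 alone, H1299 WT against Ctr and K3Q against WT gave 0. In batch 2 alone 90 of all genes were called for WT against Ctr and 8 for K3Q against WT. The A549 replicate comparison gave 0 in batch 2 alone, and 8 without the K3Q libraries beside 6053 of all genes. Without biological replicate 2, A549 K3Q against WT gave 1, and H1299 gave 5 for WT, 3 for K3R and 3 for K3Q against Ctr, 11 for K3Q against WT and 4 between the mutants. Of all genes, that setting called 2028 for K3Q against Ctr, 4033 for K3Q against WT and 1293 between the mutants in H1299. In the fit of all 24 libraries WT against Ctr in H1299 gave 0, and K3Q against WT gave 3, of which SAMD9 was called in the separate fit too while OASL and IFIT3 were not. Leaving out 1 library gave 0 to 2 for WT against Ctr and 0 to 3 for K3Q against WT in H1299. Where neither a count nor a share of all genes is given for a setting, its count is not a result about these genes alone. RLE scaling, and summing the A549 K3Q libraries 1-2 and 2-2, moved no count past 1.5 times. Calls over all genes varied too: with alternatives other than single left-out libraries from 90 to 1585 for WT against Ctr, 20 to 1392 for K3R against Ctr, 1 to 2028 for K3Q against Ctr, 8 to 4033 for K3Q against WT, and 0 to 1293 between the mutants in H1299, and from 0 to 641 in A549. Depth limits IFI44, MX1, IRF9 and OAS1 in H1299, which had at most 66, 18, 21 and 18 counts in any library.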
